A study of Mus musculus with 6 samples.

Results

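The early growth response genes Egr1, Egr2 and Egr3, the nuclear receptor genes Nr4a1, Nr4a2 and Nr4a3, and the EGR corepressor gene Nab2 were examined in splenic CD8+ T cells. These 7 genes, of 28773 in the files, are listed by name as transcripts that report recent T cell activation, without a threshold on any measured value. Between mice given 2-deoxy-D-glucose (2DG) after tumor ablation and mice given vehicle after ablation, the members were called in both directions on the scale of the deposited values. Nr4a1 fell to 38.4% and Egr1 to 63.9% of their vehicle level, Nab2 fell to 83.2%, and Egr3 rose to 140%. The rise in Egr3 was not called when samples were scaled to T lineage genes (log2 fold change 0.06), a scale on which 4 members were called lower and 0 higher by limma, also 0 higher at an unadjusted p under 0.05, beside 59.7% of tested genes lower and 4.94% higher. Egr2 and Nr4a3 did not pass the test on the deposited scale, and Nr4a2 was too low to be tested.

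EGR proteins are zinc finger transcription factors whose genes are switched on rapidly after antigen receptor engagement, largely through RAS, ERK and serum response factor. NR4A proteins are orphan nuclear receptors that act without a known physiological ligand, so that their amount sets their activity. Their genes respond to calcium, calcineurin and MEF2 and to cAMP signaling through CREB. Nr4a1 is widely used as a readout of T cell receptor signal strength. Egr2 and Egr3 restrain T cell activation and are linked to anergy, NR4A factors are linked to dysfunction in chronically stimulated CD8+ T cells, and NAB2 binds EGR proteins and represses them while being an EGR target itself. These genes are not particular to T cells, since macrophages and other myeloid cells also induce Egr1 and Nr4a1, and tissue dissociation can induce many early genes.

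Bulk RNA-seq was performed on CD8+ T cells that had been isolated with a kit from mouse spleens on day 35, with 3 samples in each of 2 groups. Both groups had a tumor treated by microwave ablation (MWA), MWA+PBS mice were injected with vehicle, and MWA+2DG mice were injected with 2DG, a glucose analog that inhibits glycolysis. Injections had stopped before the cells were collected. The mice of the study were female. The labels of these samples give neither the strain nor the age nor the tumor line, and they do not say whether a sample was 1 animal or a pool. P-values therefore measure the spread between these samples, which may be technical. No batch is labelled, and any batch aligned with treatment cannot be told apart from it.

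Each sample had 22414 to 23340 genes above 0. Values are FPKM, which scales fragments by transcript length and by the library total, and the depth behind them is unknown. The labelled cell type was present in every sample, where Cd8a and Cd8b1 together reached 546 to 572 FPKM (MWA+PBS) and 813 to 871 FPKM (MWA+2DG). Other cells were present as well. The sum of 15 macrophage and monocyte markers lay at 806 to 871 FPKM with vehicle and at 308 to 342 FPKM with 2DG, while that of 14 neutrophil markers lay at 338 to 366 and at 1640 to 1821 FPKM. The neutrophil list went both ways, with 11 markers higher and 2 lower, the granule genes Mpo (226.1 to 33.4 FPKM) and Elane (47.2 to 10.7 FPKM). In bulk RNA, fewer cells of a type and less RNA per cell cannot be told apart.

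Promoter sequence is shown for the NR4A genes, which respond to cAMP and calcium signaling, so that the motif their start sites share can be seen, and for Egr2 as the EGR gene with a window. RefSeq promoter windows of GRCm38.p6, each from 250 bases before to 50 bases after a transcription start, held 5 of the 7 members. The windows were searched for the cAMP response element half-site TGACG on either strand, which also forms part of the full palindromic element. No window of a member held that full element, which was in 1.79% of all windows. The half-site was found at 4 positions in the window of each NR4A gene, and 20.8% of all 32851 windows held at least 1. Of all windows, 0.231%, 76 in number, held it at 4 or more. That cut was the count seen in the NR4A windows, which are among the 76, so the share is a description and not a test. Positions are counted from the start, with -1 the last base before it. Capitals mark the half-site or its complement CGTCA, and in Egr2 also a CArG box, the element bound by serum response factor.
Nr4a1: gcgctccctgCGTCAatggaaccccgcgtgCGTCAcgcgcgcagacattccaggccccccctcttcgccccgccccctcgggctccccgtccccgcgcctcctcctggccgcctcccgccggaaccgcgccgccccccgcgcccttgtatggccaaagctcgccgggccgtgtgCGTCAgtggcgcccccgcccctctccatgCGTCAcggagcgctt
Nr4a2: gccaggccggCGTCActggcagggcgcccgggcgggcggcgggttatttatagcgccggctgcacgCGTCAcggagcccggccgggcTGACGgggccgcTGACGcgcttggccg
Nr4a3: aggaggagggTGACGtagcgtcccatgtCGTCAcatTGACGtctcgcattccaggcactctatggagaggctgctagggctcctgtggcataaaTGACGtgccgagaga
Egr2: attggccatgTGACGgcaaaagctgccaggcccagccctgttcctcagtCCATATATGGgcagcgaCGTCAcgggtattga

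The Nr4a1 stretch lies at chr15:101266603-101266820 on the plus strand, with half-sites at -233, -213, -69 and -40. The Nr4a2 stretch lies at chr2:57124100-57124213 on the minus strand, with half-sites at -200, -144, -123 and -111. The Nr4a3 stretch lies at chr4:48045064-48045172 on the plus strand, with half-sites at -231, -213, -205 and -147. The Egr2 stretch lies at chr10:67537748-67537828 on the plus strand, with half-sites at -111 and -55 and the CArG box at -72. A CArG box was in 1.63% of all windows. These positions are for 1 annotated Egr2 start. Of 5 Egr2 windows, 3 held the half-site and 4 a CArG box, at positions that differ with the start. The Nab2 window held no half-site. Searches for an EGR site and an NR4A site found neither in any member's window. A variant of the EGR site, present in 2.91% of all windows, was at -60 in Nr4a1 and in no other member's window. A match describes these letters and does not show a bound site.

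Egr1 (ENSMUSG00000038418), the broadly inducible founder of its family, had the highest level of the 7 genes in every sample. It was 22.65, 19.86 and 21.44 FPKM in MWA+PBS replicates 1 to 3 and 12.12, 15.74 and 13.01 FPKM in MWA+2DG replicates 4 to 6. All 3 MWA+2DG samples lay below all 3 MWA+PBS samples. The mean fell from 21.3 ± 1.40 to 13.6 ± 1.89 FPKM (SD, n = 3), a log2 fold change of -0.62 ± 0.10 (SE, 95% interval -0.84 to -0.39, limma adjusted p = 0.00226). Fold changes in limma are on the log2(FPKM + 1) scale. Of all 12444 genes tested, 7.71% had a lower log2 fold change than Egr1.

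Egr3 (ENSMUSG00000033730), which with Egr2 restrains activated T cells, moved the other way. Its level was 5.61, 4.10 and 5.55 FPKM in MWA+PBS and 7.08, 7.67 and 6.63 FPKM in MWA+2DG, so that the groups did not overlap. The mean rose 1.40-fold from 5.09 ± 0.855 to 7.13 ± 0.522 FPKM (SD, n = 3), a log2 fold change of 0.43 ± 0.11 (SE, 95% interval 0.16 to 0.69, limma adjusted p = 0.0202). The call of Egr3 was lost in some fits with 1 sample fewer, while the log2 fold change stayed similar. It was 0.43 without MWA+2DG replicate 4 (limma adjusted p = 0.0557) and 0.38 without MWA+2DG replicate 5 (limma adjusted p = 0.0653). When genes of low level were not filtered out, the limma adjusted p of Egr3 was 0.0663. With samples scaled to T lineage genes Egr3 stood at 0.06 (limma adjusted p = 0.665).

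Egr2 (ENSMUSG00000037868) was the lowest of the EGR members in both groups. It stood at 3.18, 2.86 and 3.62 FPKM in MWA+PBS and at 3.11, 3.95 and 3.95 FPKM in MWA+2DG, and the groups overlapped. The means were 3.22 ± 0.382 and 3.67 ± 0.485 FPKM (SD, n = 3), with a log2 difference of 0.14 ± 0.11 (SE) that did not pass the test (limma adjusted p = 0.316). Its 95% interval ran from -0.10 to 0.39, so neither a small fall nor a rise close to that of Egr3 is outside it.

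Nr4a1 (ENSMUSG00000023034), which encodes NUR77, changed by more than any other member. It was 12.47, 12.04 and 12.75 FPKM in MWA+PBS and 5.47, 4.55 and 4.27 FPKM in MWA+2DG. The highest MWA+2DG sample did not reach the lowest MWA+PBS sample. The mean was 2.61-fold lower, at 12.4 ± 0.358 against 4.76 ± 0.628 FPKM (SD, n = 3), with a log2 fold change of -1.22 ± 0.08 (SE, 95% interval -1.42 to -1.03, limma adjusted p = 4.17e-05). A lower log2 fold change than that of Nr4a1 was found for 2.70% of all tested genes.

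Nr4a3 (ENSMUSG00000028341), which encodes NOR1, was 3.24, 2.93 and 3.70 FPKM in MWA+PBS and 2.64, 2.99 and 2.82 FPKM in MWA+2DG. The groups overlapped, because MWA+2DG replicate 5 lay just above MWA+PBS replicate 2. Means were 3.29 ± 0.387 and 2.82 ± 0.175 FPKM (SD, n = 3), and the log2 difference of -0.17 ± 0.09 (SE, 95% interval -0.38 to 0.04) did not pass the test (limma adjusted p = 0.182). The interval of Nr4a3 and that of Nr4a1 did not meet.

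Nr4a2 (ENSMUSG00000026826), which encodes NURR1, was listed at 1.18, 0.93 and 0.77 FPKM in MWA+PBS and at 0.73, 0.45 and 0.57 FPKM in MWA+2DG. All MWA+2DG values of Nr4a2 were below those of MWA+PBS, with means of 0.96 ± 0.207 and 0.583 ± 0.140 FPKM (SD, n = 3). Its mean over the 6 samples was under the minimum of 1 FPKM for testing. In a fit without that minimum the log2 difference of Nr4a2 was -0.31 ± 0.11 (SE, 95% interval -0.59 to -0.02), and it was not called (limma adjusted p = 0.143).

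Nab2 (ENSMUSG00000025402), the corepressor, fell by a small amount. It was 10.36, 9.56 and 9.78 FPKM in MWA+PBS and 8.37, 7.87 and 8.47 FPKM in MWA+2DG, without overlap. The means were 9.90 ± 0.413 and 8.24 ± 0.321 FPKM (SD, n = 3), a log2 fold change of -0.24 ± 0.06 (SE, 95% interval -0.38 to -0.10, limma adjusted p = 0.0164). The limma adjusted p of Nab2 was 0.0688 without MWA+PBS replicate 1 and 0.0530 without MWA+2DG replicate 5. Exons of Nab2 share 1050 bases with Gm16229, 151 with Nemp1 and 40 with Stat6, all on the opposite strand, and the sources used here do not state whether strand entered the quantification. Stat6 itself went from 58.0 to 50.6 FPKM, or -0.19 on the log2 scale (limma adjusted p = 0.0276).

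**Figure D1:**
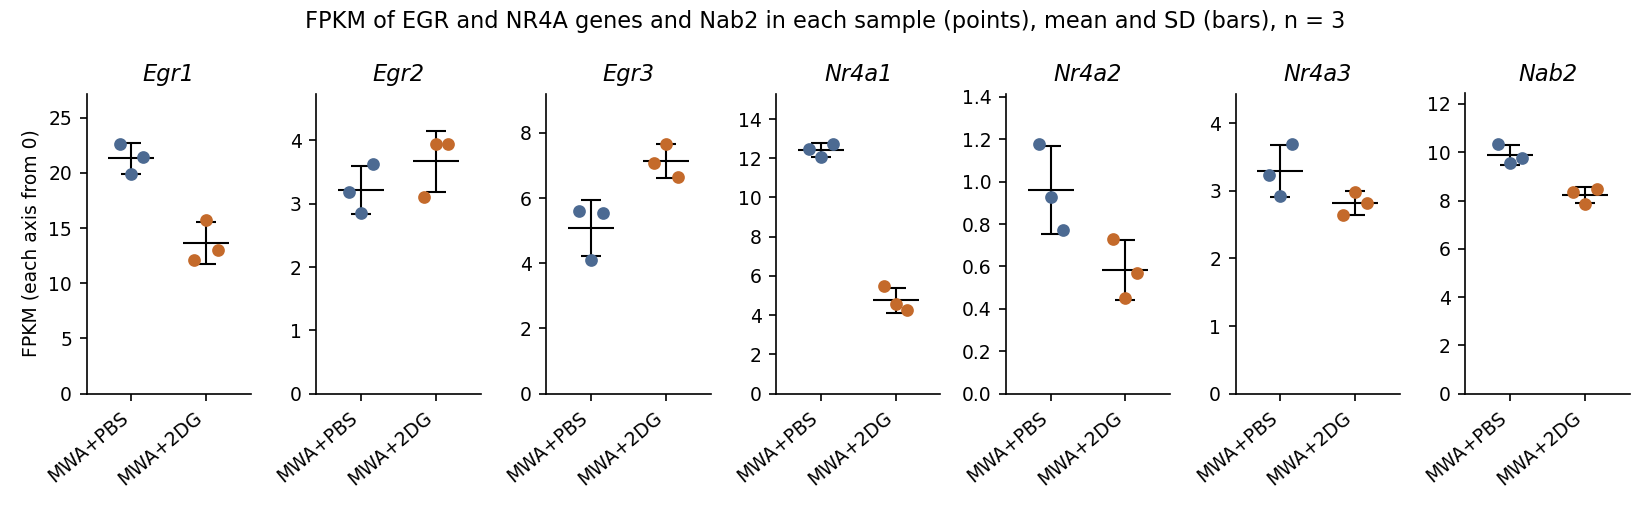
FPKM of the 7 members in each sample, with points for samples and bars for the mean and SD of the 3 MWA+PBS and 3 MWA+2DG samples. Points of the groups do not overlap for Egr1, Egr3, Nr4a1, Nr4a2 and Nab2, and overlap for Egr2 and Nr4a3.

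Of the 6 members tested, 3 were called lower and 1 higher at a limma adjusted p under 0.05. Among all tested genes, 17.1% were called lower, 22.3% higher and 39.4% in either direction, so calls were common in this comparison. By the rule of the study's methods, an unadjusted P under 0.05 together with a log2 change larger than 0.25, Nr4a1 and Egr1 were lower and Egr3 was higher, beside 16.6% of tested genes lower and 21.6% higher. Nab2 missed that rule by its size at -0.24, but was beyond it at -0.26 with a pseudocount of 0.1, at -0.27 with quantile normalization and at -0.28 with median ratio scaling. The groups did not overlap for 4 of the 6 tested members, and for 52.1% of all tested genes. The median log2 fold change was -0.20 over the tested members and 0.05 over all tested genes.

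FPKM is per length, so the levels of different members can be ordered within a sample. In MWA+PBS the order of mean level was Egr1, Nr4a1, Nab2, Egr3, Nr4a3, Egr2 and Nr4a2, and the ranges of neighbors overlapped only for Nr4a3 and Egr2. In MWA+2DG it was Egr1, Nab2, Egr3, Nr4a1, Egr2, Nr4a3 and Nr4a2, and no neighboring ranges overlapped. Nr4a1 thus moved from rank 2 to rank 4, below Nab2 and Egr3.

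The makeup of each family was compared by the share of each gene in the family's summed FPKM, which no scaling between samples can change. Within such a sum, a fall in a gene by itself raises the shares of the others. The part of other cells in the shares was not tested. Egr1 held 72.0%, 74.0% and 70.0% of the EGR sum in MWA+PBS and 54.3%, 57.5% and 55.2% in MWA+2DG. Egr3 held 17.8%, 15.3% and 18.1% in MWA+PBS and 31.7%, 28.0% and 28.1% in MWA+2DG. The mean share moved by -16.4 percentage points for Egr1 and by 12.2 for Egr3, though no share passed the exact test given below. Egr2 held a mean of 10.9% in MWA+PBS and 15.0% in MWA+2DG, also without overlap. The Egr1 to Egr3 ratio of FPKM averaged 4.25 ± 0.523 in MWA+PBS and 1.91 ± 0.176 in MWA+2DG (SD, n = 3). The EGR sum itself was 31.44, 26.82 and 30.61 FPKM against 22.31, 27.36 and 23.59 FPKM, and these ranges overlapped.

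In the NR4A family, Nr4a1 held 73.8%, 75.7% and 74.0% of the sum in MWA+PBS and 61.9%, 56.9% and 55.7% in MWA+2DG. Nr4a3 held 19.2%, 18.4% and 21.5% in MWA+PBS and 29.9%, 37.4% and 36.8% in MWA+2DG. The mean share moved by -16.3 percentage points for Nr4a1 and by 15.0 for Nr4a3, whose own mean level was not higher (3.29 and 2.82 FPKM). Nr4a2 held 5.77% ± 1.26 and 7.11% ± 1.34 (SD, n = 3), and its shares overlapped. The NR4A sum was 16.89, 15.90 and 17.22 FPKM in MWA+PBS and 8.84, 7.99 and 7.66 FPKM in MWA+2DG, so that, unlike the EGR sum, it did not overlap between groups. With 3 samples against 3, the two-sided exact permutation test cannot go below p = 0.1. It gave p = 0.1 for each of the 5 shares that did not overlap (adjusted p = 0.12 over 6 exact tests) and p = 0.3 for Nr4a2 (adjusted p = 0.3), so no share passed the threshold.

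Set against the corepressor, the Egr1 to Nab2 ratio of FPKM averaged 2.15 ± 0.0646 in MWA+PBS and 1.66 ± 0.297 in MWA+2DG (SD, n = 3). The Nr4a1 to Nab2 ratio was 1.26 ± 0.0501 and 0.579 ± 0.0747. Neither ratio overlapped between groups, and each gave the smallest possible p of 0.1 in the exact permutation test.

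**Figure D2:**
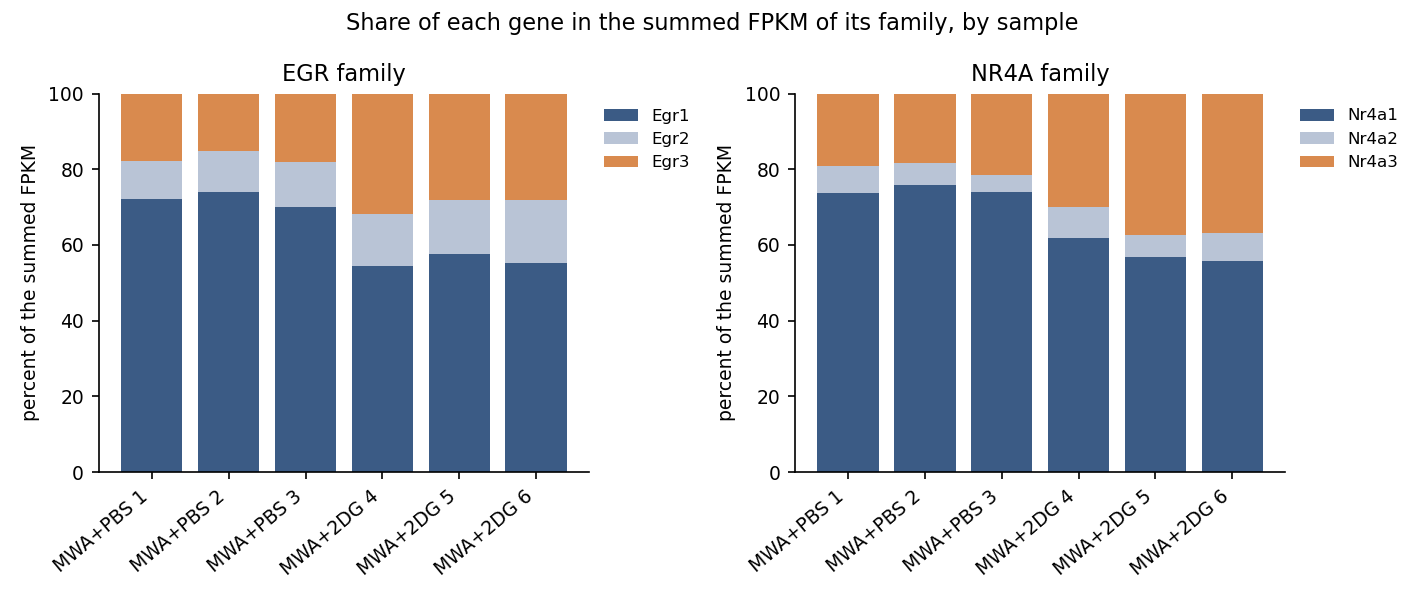
Share (percent) of each gene in the summed FPKM of Egr1, Egr2 and Egr3 and of Nr4a1, Nr4a2 and Nr4a3, with 1 stacked bar for each of the 6 samples. Egr1 goes from 70.0 to 74.0% in MWA+PBS to 54.3 to 57.5% in MWA+2DG, and Nr4a1 from 73.8 to 75.7% to 55.7 to 61.9%.

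T lineage transcripts took a larger part of the RNA in MWA+2DG, and this bears on every level above. All 11 T lineage markers were higher, summing to 825 to 868 FPKM with vehicle and to 1102 to 1172 FPKM with 2DG. When each sample was scaled to these 11 genes, the median of all tested genes moved from 0.05 to -0.32, and calls went from 2773 higher and 2134 lower to 616 higher (4.94%) and 7445 lower (59.7%) of the 12476 genes past the minimum on that scale. On this scale Nr4a1 stood at -1.60, Egr1 at -1.02, Nab2 at -0.62 and Nr4a3 at -0.48, and limma called each of them lower (adjusted p = 0.00391 for Nr4a3). Egr3 stood at 0.06 and was no longer called (limma adjusted p = 0.665), and Egr2 turned to -0.18 without being called. Relative to the shifted median, Egr1 and Nr4a1 lay at -0.70 and -1.28, Nab2 at -0.31 and Nr4a3 at -0.17, and Egr2 and Egr3 at 0.13 and 0.38.

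**Figure D3:**
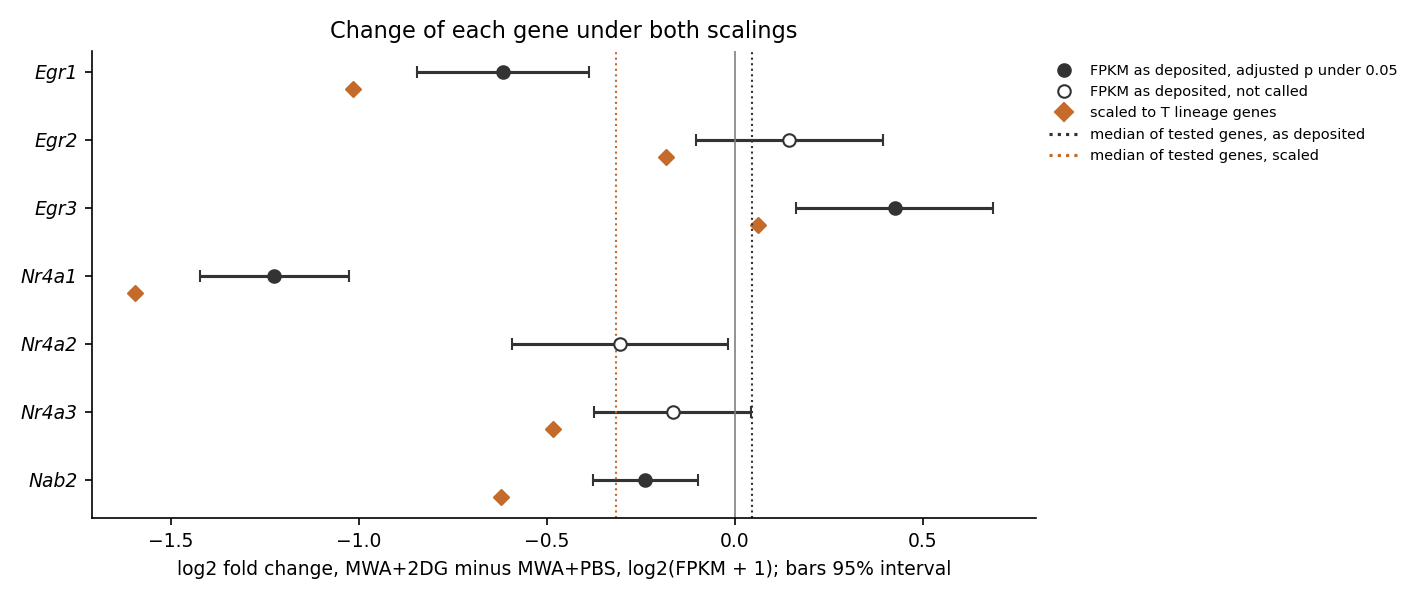
Log2 fold change of each member (MWA+2DG minus MWA+PBS, on log2(FPKM + 1)), with circles and 95% intervals for FPKM as deposited (filled where called), diamonds for T lineage scaling and dotted lines for the median of all tested genes on each scale. Nr4a1 (-1.22 and -1.60) and Egr1 (-0.62 and -1.02) lie below the median line on both scales, Egr3 drops from 0.43 to 0.06, and Nr4a2 is drawn from the fit without a minimum level.

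Markers of other cells moved with these results. Of 14 macrophage and monocyte markers tested, 13 were lower and 1, Lyz2, was higher. Csf1r, the receptor for macrophage colony-stimulating factor, went from 67.9 to 10.6 FPKM, and the complement gene C1qa from 130.1 to 20.3 FPKM. Summed erythroid markers reached 294 to 350 FPKM with vehicle and 67.2 to 85.3 FPKM with 2DG. In the same order, CD4 T cell markers reached 8.96 to 9.72 and 6.45 to 7.03 FPKM, and dendritic cell markers 5.34 to 6.67 and 2.21 to 2.48 FPKM. Of the CD4 T cell markers, Cd4 and Zbtb7b were called lower. Cd40lg was not called (1.35 and 1.49 FPKM), and Foxp3 was too low to test (0.55 and 0.593 FPKM). The natural killer cell list summed to 47.2 to 53.7 and 20.4 to 25.95 FPKM, mostly from Tyrobp (43.5 to 16.9 FPKM), an adaptor gene that myeloid cells also express. Ncr1 was lower (6.54 to 4.92 FPKM), while Klra4 (0.08 and 0.207 FPKM) and Klra9 (listed at 0 in MWA+PBS, 0.123 FPKM in MWA+2DG) were too low to test. B cell markers summed to 13.9 to 15.3 and 54.8 to 59.6 FPKM, with 8 of 9 tested markers higher and 1, Bank1, lower (4.69 to 2.42 FPKM). No marker was at 0 in all samples. The part of these cells in the levels of Egr1, Nr4a1 and the other members was not tested.

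The genes whose pattern over the 6 samples was most like that of a called member were found by the root mean square difference of log2(FPKM + 1), centered on the MWA+PBS mean. For Nr4a1 these were Rab44 (0.0524), the macrophage scavenger receptor gene Marco (0.0524) and the aromatic amino acid transporter gene Slc16a10 (0.0652), with log2 fold changes of -1.17, -1.17 and -1.28. For Egr1 they were Hk2, encoding a hexokinase of glycolysis (0.0590), the nucleoside transporter gene Slc29a3 (0.0643) and Zcchc24 (0.0651), with log2 fold changes of -0.59, -0.63 and -0.65. Marco is also on the macrophage list. Likeness over samples that mainly separate into groups says little beyond the size of the change.

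Most other immediate early genes fell. Of 24 listed, 23 were tested, 16 were lower, 4 were higher and 3 were not called. Among all tested genes, 17.1% were lower and 22.3% higher. The median log2 fold change of the list was -0.69, beside 0.05 over all tested genes. Jun fell from 76.3 ± 3.14 to 7.57 ± 0.850 FPKM (SD, n = 3), a log2 fold change of -3.18, and its AP-1 partners Fosb and Fos stood at -3.06 and -2.63. Dusp1, a phosphatase of MAP kinases, stood at -1.89. The 4 higher genes were Dusp2 at 0.70, Myc at 0.27, Btg2 at 0.25 and Nfkbid at 0.23, the last 3 of which turned negative on the T lineage scale, where Nfkbid was called lower at -0.18 (limma adjusted p = 0.0482). Dusp2 was at 0.29 there and not called (limma adjusted p = 0.0585). On the T lineage scale the list had 0 higher and 20 lower by limma, or 1 and 21 at an unadjusted p under 0.05. Of all tested genes, 4.94% were called higher and 59.7% lower there. On the deposited scale, without MWA+PBS replicate 1, 2 genes of the list were called higher. Dusp2, Myc, Btg2 and Nfkbid were given with their values as the only higher genes, after those values were seen. Egr1 and Nr4a1 thus had the direction of Jun, Fosb and Fos, and Egr3 that of the 4 higher genes on the scale of the deposited values.

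Inducible heat shock genes fell in the same comparison, with 9 of 9 tested genes lower, a median log2 fold change of -1.77 and a sum of 1518 to 1600 FPKM in MWA+PBS against 512 to 541 in MWA+2DG. Hspa1b and Hspa1a, which encode near-identical HSP70 proteins and whose separate values are therefore uncertain, stood at -5.64 and -5.34. The co-chaperone genes Hsph1 and Dnajb1 stood at -2.36 and -2.07. The part of the changes in heat shock genes in the levels of the members was not tested.

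Over 3 lists of signaling components upstream of the members, 12 of 35 tested genes (34.3%) were called in either direction, close to the 39.4% of all tested genes. Of 12 tested nuclear regulators of EGR and NR4A genes, such as serum response factor and its partners, CREB and MEF2, 4 were higher and 0 lower by limma, with 5 higher and 1 lower at an unadjusted p under 0.05 and a median log2 fold change of 0.13. The 4 were Hdac7 at 0.32, Mef2a at 0.30, Elk3 at 0.28 and Elk4 at 0.26. Hdac7 encodes a deacetylase that represses Nr4a1 through MEF2, and the product of Elk3 mainly represses serum response factor targets. All 4 turned negative on the T lineage scale, where 7 of the 12 were called lower, beside 59.7% of all tested genes. Without MWA+PBS replicate 2 or 3, 1 gene of the list was called lower. Srf itself was at 0.11 and not called (limma adjusted p = 0.37).

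Of 11 calcineurin and NFAT genes, 2 were higher, 1 lower and 8 not called, with a median of 0.07. Ppp3cc, a catalytic subunit of calcineurin, went from 23.2 to 37.1 FPKM at a log2 fold change of 0.66, and Ppp3cb rose by 0.35, though it was at -0.05 on the T lineage scale. Rcan1, a calcineurin inhibitor that NFAT induces, fell by 0.39. Of 12 RAS and ERK genes, 4 were higher, 1 lower and 7 not called, with a median of 0.06. Rasgrp1, which activates RAS downstream of the T cell receptor, rose from 51.0 to 78.6 FPKM at 0.61, while Rps6ka3 stood at 0.31 and Nras at 0.28. Rps6ka3 and Nras turned negative on the T lineage scale, where the calcineurin and NFAT list and the RAS and ERK list each had 1 gene higher and 8 lower. Of all tested genes, 4.94% were higher and 59.7% lower on that scale, with a median of -0.32. On the deposited scale, the calcineurin and NFAT list lost its lower call without MWA+PBS replicate 3 or MWA+2DG replicate 5 or 6. The RAS and ERK list lost its lower call without MWA+PBS replicate 1 or MWA+2DG replicate 4 or 5. The lower gene of the RAS and ERK list, Mapk3, which encodes ERK1, stood at -0.27.

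Among relatives and partners, Egr4 and Rxrg were too low to test, and Egr4 was listed at 0.03, 0.06 and 0.01 FPKM in MWA+PBS and at 0 in every MWA+2DG sample. Rxra, a retinoid X receptor that pairs with NR4A1 and NR4A2, fell from 9.49 ± 0.972 to 3.44 ± 0.495 FPKM (SD, n = 3), a log2 fold change of -1.24. Rxrb stood at -0.02, and at -0.41 on the T lineage scale, where it was called lower (limma adjusted p = 0.000577). Nab1, the second EGR corepressor gene, was at 22.4 ± 2.34 and 25.8 ± 1.99 FPKM (SD, n = 3), and its difference of 0.20, which turned to -0.21 on the T lineage scale, did not pass the test (limma adjusted p = 0.116). Without MWA+PBS replicate 2, 1 gene of this list was called higher.

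Of 15 tested transcripts that T cell receptor signals induce, 5 were higher, 3 lower and 7 not called, with a median of 0.21, beside 22.3% of all tested genes higher and 17.1% lower. On the T lineage scale 3 were higher and 4 lower, with a median of -0.13, beside 4.94% and 59.7% of all tested genes, and without MWA+PBS replicate 2, 8 were higher. The chemokine gene Xcl1 rose from 4.37, 5.37 and 2.23 FPKM in MWA+PBS to 10.96, 8.75 and 8.49 FPKM in MWA+2DG, at 1.11, and Crtam rose at 0.64. Irf8, a factor also used by myeloid and B cells, fell at -1.10, and the chemokine gene Ccl3 fell at -0.72. The remaining called genes, also named after their values were seen, were Cd5 at 0.60, Tnfrsf9 at 0.49, Irf4 at 0.40 and Bhlhe40 at -0.51. Cd5 was still called higher on the T lineage scale, at 0.19 (limma adjusted p = 0.0119). Cd69, an early activation marker named here after its value was seen, was 10.1 ± 1.62 and 9.92 ± 0.344 FPKM (SD, n = 3), a log2 difference of -0.02 that did not pass the test (limma adjusted p = 0.916). On the T lineage scale Cd69 was called lower, at -0.40 (limma adjusted p = 0.00878), where the median of all tested genes is -0.32.

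Genes reported downstream of the members are read beside 39.4% of all tested genes called. Of 12 tested for Egr2 and Egr3, 3 were higher, 5 lower and 4 not called, with a median of -0.05. On the T lineage scale the split was 0 higher and 9 lower by limma, also 0 and 9 at an unadjusted p under 0.05, beside 59.7% of all tested genes lower there. Without MWA+2DG replicate 4 or 6, 1 was called higher, and without MWA+PBS replicate 1 or MWA+2DG replicate 5 or 6, 3 were called lower. Nrgn fell from 6.43 ± 0.982 to 2.24 ± 0.108 FPKM (SD, n = 3) at -1.19, the cell cycle inhibitor gene Cdkn1a fell at -0.68 and the inhibitory receptor gene Lag3 at -0.46, while Fasl, the death ligand gene, rose at 0.56 but was not called on the T lineage scale (0.29, limma adjusted p = 0.130). Of 8 tested for NR4A receptors, 1 was higher, 1 lower and 6 not called, with a median of 0.13. These were Tox, a factor of exhausted T cells, at 0.30, which was at -0.07 on the T lineage scale, and Bcl2l11, encoding the death factor BIM, at -0.34. This list had 0 higher and 3 lower on the T lineage scale by limma and at an unadjusted p under 0.05, 0 lower without MWA+PBS replicate 1 (2 at an unadjusted p under 0.05), and 2 higher without MWA+2DG replicate 6.

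**Figure D4:**
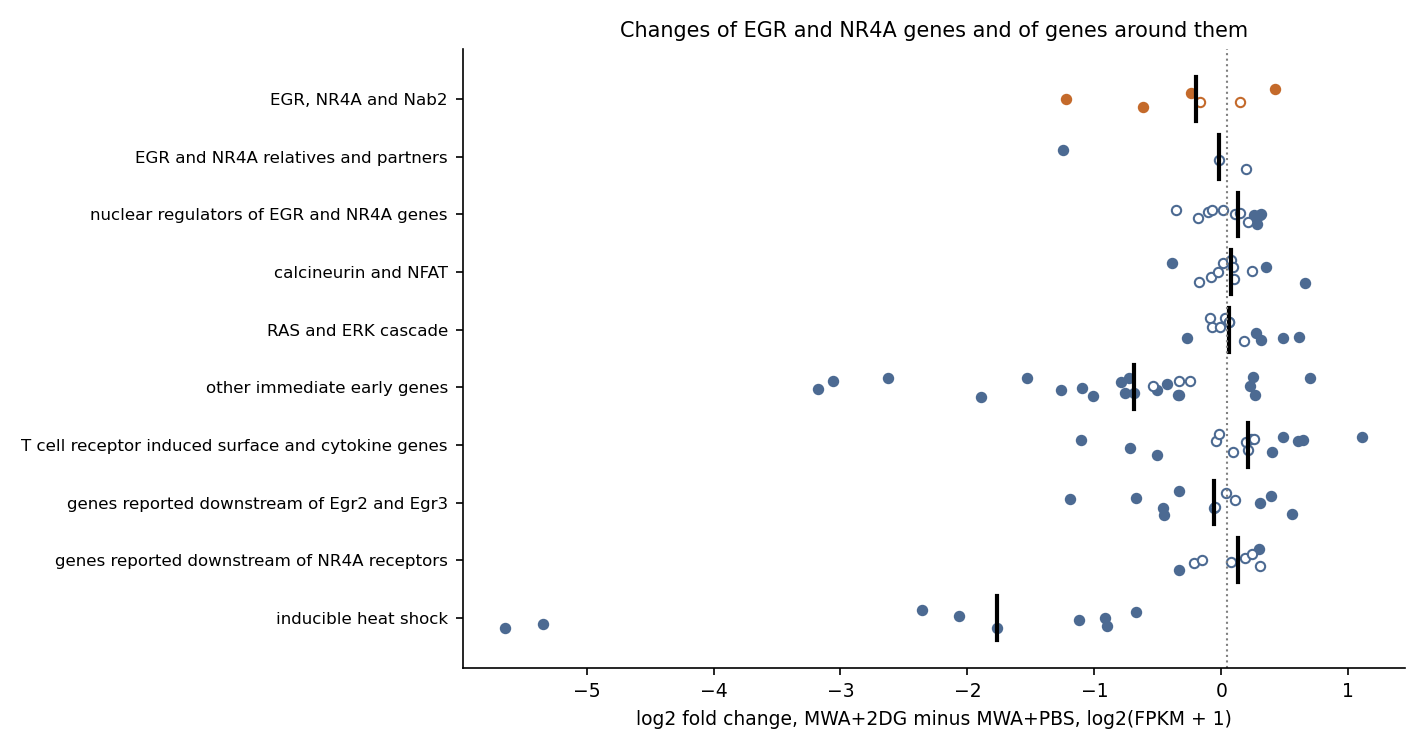
Log2 fold change (MWA+2DG minus MWA+PBS, on log2(FPKM + 1)) of each tested gene in the pathway lists, with 1 point per gene, filled where called, a bar for the list median and a dotted line for the median of all tested genes. Medians are -0.69 for other immediate early genes and -1.77 for heat shock genes, and -0.20 for the members, while those of the RAS and ERK and the calcineurin and NFAT lists are at 0.06 and 0.07.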

How the data were processed

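Poly(A) RNA of 6 samples of splenic CD8+ T cells was sequenced from strand-marked libraries with molecular identifiers. Per the study's methods, the authors used fastp for read quality, HISAT2 for mapping, and StringTie with ballgown for FPKM. The submitters' processing notes name cutadapt 1.9, HISAT2 2.0.4, UMI-tools, StringTie 1.3.4d and the build mm9, while the sources used here do not give the annotation. The deposited values are FPKM with 2 decimals, each gene relative to its library's total. They gave no common step from which reads could be recovered, so the depth is not known and counting intervals are left out.

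Symbols were matched to 28689 of 28773 gene IDs in GENCODE M21. Genes with a mean FPKM of at least 1 over all samples (12444) were tested as log2(FPKM + 1) with limma 3.58.1 in R 4.3.3 (lmFit, eBayes with a trend), as a two-sided contrast of MWA+2DG against MWA+PBS with no covariate. P-values were adjusted by Benjamini-Hochberg over all tested genes and called under 0.05. Shares were compared by an exact permutation test. The fit was tested on simulated data.

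The members and gene lists were chosen with earlier results of these data known. Named genes were all members, the 4 largest called changes per pathway list and the 3 genes nearest in pattern to Egr1 and to Nr4a1, with the exceptions stated. Srf, Mapk3, Rxrb, Nab1, Stat6, Egr4 and the cell markers fall outside this rule and were named after their values were seen, and 1 gene that this rule names is not reported here. Alternatives were a pseudocount of 0.1, no minimum, a minimum mean FPKM of 5, median ratio scaling, quantile normalization, T lineage scaling, a total that leaves out ribosomal protein, haemoglobin, immunoglobulin and mitochondrial genes, eBayes without a trend, arrayWeights, the study's call rule, log ratios in place of shares, and leaving out each sample. Promoter windows came from RefSeq on GRCm38.p6, a different build from that of the files. The Egr1 promoter and the Egr3 promoter were not analysed here.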

Additional observations from a re-analysis of the deposited data

How the results depend on the processing

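Egr1 and Nr4a1 kept their direction and their call under every alternative run. With T lineage scaling, Egr2 reversed to -0.18, Egr3 was at 0.0619 and no longer called, Nr4a3 was at -0.48 and newly called, and the members called higher numbered 0 (limma, also 0 at an unadjusted p under 0.05). Without a minimum level Egr3 was at 0.43 and not called, so 0 members were called higher and 1 was at an unadjusted p. Leaving out each sample gave 0.30 to 0.49 for Egr3, -0.26 to -0.21 for Nab2 and 0 to 1 members called higher. Egr2 and Nr4a3 had no value at a mean FPKM of at least 5. Tested genes called numbered 8061 with T lineage scaling and 2951 at a mean FPKM of at least 5. With T lineage scaling the calls were 2 for relatives and partners, 7 for nuclear regulators, 9 for calcineurin and NFAT and 9 for RAS and ERK. In the last 2 lists 8 of them were lower, beside 59.7% of all tested genes lower there. ArrayWeights gave 9 for nuclear regulators and 4 for genes downstream of NR4A. The T cell receptor induced list had 5 at a mean FPKM of at least 5. Genes downstream of Egr2 and Egr3 had 4 without a minimum and 2 at a mean FPKM of at least 5. Without 1 sample, calls were 1 to 2 for relatives and partners, 4 to 7 for genes downstream of Egr2 and Egr3 and 1 to 3 for those downstream of NR4A. The causes were not tested. Of the members' recomputed log2 fold changes, 80 kept direction and side of the threshold, 6 lost and 1 gained a call, and 1 reversed. Of the recomputed counts, 109 were equal to those reported, and 162, these included, were within 1.5 times, while 21 were not. All 42 recomputed shares and log ratios kept their direction, in a test that cannot pass the threshold. No paired analysis was possible because MWA+PBS is numbered 1 to 3 and MWA+2DG 4 to 6, so no number is shared. On the deposited scale, with 3 samples a group and unknown depth, Egr2, Nr4a2 and Nr4a3 were not called, and small changes in them remain possible.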
